A study of Mus musculus with 4 samples.

Results

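The globin and red cell genes were followed in pooled cerebrum RNA of mice that lack Mfsd2a in endothelial cells. The members were all probe sets of the Affymetrix Mouse 430 2.0 array whose annotation names Alas2, Slc4a1, Ermap or any alpha- or beta-globin gene (symbols beginning Hba- or Hbb-), including probe sets shared by several globin genes. This gave 20 of 45101 probe sets, which name 12 genes. The genes were selected on the measured globin and Alas2 folds of these same arrays, so their folds are a description and carry no test.

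Each of 4 groups was 1 pool of 5 to 6 cerebral hemispheres on 1 array, and every group carried the floxed Mfsd2a allele. The 2aECKO pool came from Mfsd2a fl/fl mice with Tie2-cre at postnatal day 9, and its control was 2afl/fl at postnatal day 9. The 2aiECKO pool came from Mfsd2a fl/fl mice with Cdh5ERT2-cre at postnatal day 8, given 4-OHT, and its control was 2afl/fl given 4-OHT at postnatal day 8. Tie2-cre is known to act in blood-forming cells as well as in endothelium, and Cdh5ERT2-cre acts in endothelium once tamoxifen or its metabolite 4-OHT is given. The source label of the 2aiECKO sample gives it as 2aECKO, but its title and genotype do not, and those were followed. The methods state that the mice were perfused through the heart with buffered saline before the cerebrums were taken, which washes blood from the vessels, but how much blood was left in each pool was not recorded in the sources used here.

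With 1 array per group there was no replicate and no p-value, and precision is limited by the number of arrays. The arrays of 1 pair had nearly the same distribution, since sorted log2 signals differed by at most 0.07 within the 2aECKO pair and 0.05 within the 2aiECKO pair, but the controls of the pairs differed by up to 0.79, so folds were taken within a pair. Signals are RMA values on a linear scale, and a log2 fold is the knockout pool minus its own control. A probe set was counted as higher or lower when it had a signal of at least 50 in the array with the larger value and a fold of at most 0.8 or at least the inverse of 0.8, which is 0.32 on the log2 scale in either direction. Mfsd2a itself, at its single probe set, had signals of 410 in 2aECKO and 423 in 2afl/fl, and 299 in 2aiECKO and 369 in 2afl/fl 4-OHT. These are log2 folds of -0.05 and -0.30, and since the place of this probe set relative to the deleted exons is unknown here, it does not check the labels.

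Haemoglobin is a tetramer of 2 alpha and 2 beta chains, each holding 1 haem. Its mRNA is made in erythroblasts, and in circulating blood it persists in reticulocytes, the young red cells that have lost their nucleus but still translate. In a tissue that makes no red cells, such as postnatal brain, abundant globin mRNA is therefore usually read as a trace of blood, although low globin expression has also been described in neurons and glia. In bulk RNA, fewer cells of a type and less RNA per cell cannot be told apart.

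The adult globin genes of the mouse lie in a pair of clusters, the alpha genes on chromosome 11 and the beta genes on chromosome 7. They are switched on together in erythroid cells through GATA1 and KLF1, which bind GATA and CACCC elements at their promoters and distant enhancers. Because the 4 probe sets shared by the adult globin copies, and Alas2, lay on the same side of their control in each pool, the 150 bases before the RefSeq start of these genes are shown (build GRCm38.p6): Hba-a1 at chr11:32283522-32283671 on the plus strand, Hba-a2 at chr11:32296342-32296491 on the plus strand, Hbb-bs at chr7:103827929-103828078 on the minus strand, Hbb-bt at chr7:103813924-103814073 on the minus strand and Alas2 at chrX:150547267-150547416 on the plus strand. They are written 5′ to 3′ toward the start, and capitals mark the GATA motif (searched as AGATAA), the CACCC box (searched as those 5 letters), the CCAAT box (likewise) and the TATA box (searched as TATAA) on either strand, with adjoining matches run together.
Hba-a1: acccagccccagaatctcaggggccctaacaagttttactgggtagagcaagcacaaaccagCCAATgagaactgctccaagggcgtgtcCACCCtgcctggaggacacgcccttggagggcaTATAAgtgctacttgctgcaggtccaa
Hba-a2: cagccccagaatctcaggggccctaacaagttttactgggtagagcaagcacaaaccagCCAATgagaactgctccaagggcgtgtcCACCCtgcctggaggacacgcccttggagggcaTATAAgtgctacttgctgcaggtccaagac
Hbb-bs: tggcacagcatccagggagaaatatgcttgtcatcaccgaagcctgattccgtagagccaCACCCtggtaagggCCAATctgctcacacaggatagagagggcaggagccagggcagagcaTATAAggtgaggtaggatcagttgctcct
Hbb-bt: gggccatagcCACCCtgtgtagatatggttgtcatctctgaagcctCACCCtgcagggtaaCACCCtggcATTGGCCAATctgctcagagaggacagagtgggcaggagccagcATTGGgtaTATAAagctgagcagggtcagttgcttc
Alas2: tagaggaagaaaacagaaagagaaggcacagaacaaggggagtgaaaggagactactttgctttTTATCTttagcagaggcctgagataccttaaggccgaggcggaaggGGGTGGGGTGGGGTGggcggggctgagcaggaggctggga
Hba-a1 and Hba-a2 shared an unbroken run of 147 bases, shifted by 3, so even their promoters are nearly copies of each other. Both carried 1 CCAAT box, 1 CACCC box and 1 TATA box, in that order toward the start, with the TATA box beginning 27 bases before the start of Hba-a1 and 30 before that of Hba-a2. Hbb-bs and Hbb-bt were the same at 71.1 percent of 149 aligned bases and also carried all 3 boxes. Hbb-bt had 3 CACCC boxes and 3 CCAAT boxes where Hbb-bs had 1 of each. Alas2 had neither a CCAAT box nor a TATA box in this window. It was the single one of these 5 with the GATA motif, beginning 86 bases before the start on the opposite strand, and it had 3 CACCC boxes on the opposite strand. Over all 32851 RefSeq windows of this length, 5.65 percent held the GATA motif, 37.4 percent a CACCC box, 24.5 percent a CCAAT box and 14.2 percent a TATA box. These are matches of letters, and no binding was measured.

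The 2 knockout pools stood on opposite sides of their controls. In 2aECKO, adult alpha and beta globin signals were 2.71 to 2.84 times those of 2afl/fl at the 4 probe sets shared by the globin copies, and Alas2, the erythroid enzyme that starts haem synthesis, was 2.07 times its control. In 2aiECKO, the same 4 globin probe sets were at 0.587 to 0.705 times their 4-OHT control. Embryonic globins and the red cell membrane genes Slc4a1 and Ermap were dim and met the fold rule in neither pool.

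Of the 20 probe sets, 8 reached a signal of 50 on any array, 3 reached it on all 4, and 12 stayed below 50 on all 4. In 2aECKO, 7 had a signal of 50 or more in either array, 6 of these were higher and 0 lower, against 4.64 percent higher and 1.95 percent lower among all 27276 probe sets of that brightness. In 2aiECKO, 5 had a signal of 50 or more in either array, 0 were higher and 4 lower, against 1.99 percent higher and 0.726 percent lower among 22723. Since the members were chosen with these folds known, nothing is read from the excess. The median log2 fold of all 20 was 0.08 in 2aECKO and -0.19 in 2aiECKO, with the 12 members below 50 included. It was 0.00 in each pair for all probe sets with a signal of 50 or more in either array, whose robust SD was 0.13 in the 2aECKO pair and 0.11 in the 2aiECKO pair.

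**Figure D1:**
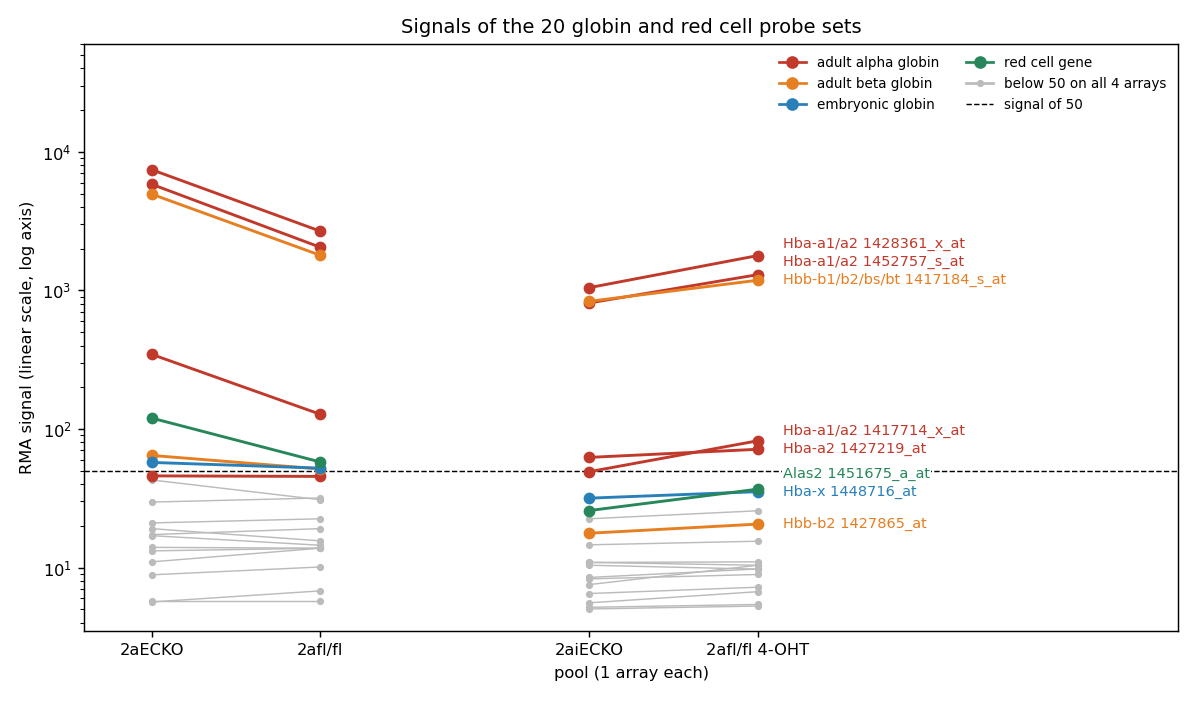
RMA signal (linear scale on a log axis) of the 20 globin and red cell probe sets in the 4 pools, 1 array each, with a line joining each knockout pool to its own control. The 3 brightest lines, at 4957 to 7438 in 2aECKO, slope down toward 2afl/fl and, in the other pair, up toward 2afl/fl 4-OHT, while the 12 grey probe sets stay below the dashed line at 50.

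Hba-a1 and Hba-a2 are near-identical copies that encode the adult alpha chain, and 3 of the 5 alpha probe sets match both genes. In this platform's names, the endings _s_at and _x_at mark probe sets whose probes match, or may cross-hybridise to, transcripts of other genes, whereas _at marks those designed to 1 transcript and _a_at those to several transcripts of 1 gene. The probe set 1428361_x_at had signals of 7438 in 2aECKO and 2683 in 2afl/fl, and of 1047 in 2aiECKO and 1783 in 2afl/fl 4-OHT. It was thus 2.77 times its control in 2aECKO (log2 fold 1.47) and 0.587 times its control in 2aiECKO (log2 fold -0.77). The probe set 1452757_s_at had 5839 in 2aECKO and 2053 in 2afl/fl, and 812 in 2aiECKO and 1299 in 2afl/fl 4-OHT. Its log2 folds were 1.51 and -0.68, close to those of the first. The dimmer 1417714_x_at had 346 in 2aECKO and 128 in 2afl/fl, and 49.2 in 2aiECKO and 82.2 in 2afl/fl 4-OHT, with log2 folds of 1.44 and -0.74 and a 2aiECKO signal just under 50. The 3 shared alpha probe sets, whose signals cover a wide range, thus ran from 1.44 to 1.51 in 2aECKO and from -0.77 to -0.68 in 2aiECKO.

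The remaining pair of alpha probe sets, each annotated to 1 copy, did not follow. Hba-a2 at 1427219_at had 45.9 in 2aECKO and 45.5 in 2afl/fl, a log2 fold of 0.01, and 62.4 in 2aiECKO and 71.4 in 2afl/fl 4-OHT, a log2 fold of -0.19. Hba-a1 at 1453574_at had 21.0 in 2aECKO and 22.5 in 2afl/fl, and 8.29 in 2aiECKO and 8.92 in 2afl/fl 4-OHT, with log2 folds of -0.09 and -0.10. The alpha globin folds thus rest on probe sets that cannot assign the signal to either copy. The median over the 5 alpha probe sets was 1.44 in 2aECKO and -0.68 in 2aiECKO, and without the probe sets shared between genes it was -0.04 and -0.15, from the 2 dim ones.

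The beta chain gave the same picture at its 1 bright probe set. 1417184_s_at matches the adult beta genes of both mouse haplotypes, Hbb-bs and Hbb-bt, which C57BL/6 mice carry, and Hbb-b1 and Hbb-b2, the major and minor genes of other strains. Its signals were 4957 in 2aECKO and 1797 in 2afl/fl, and 834 in 2aiECKO and 1184 in 2afl/fl 4-OHT. In 2aECKO this was a log2 fold of 1.46, beside 1.44 to 1.51 for the shared alpha probe sets, and in 2aiECKO one of -0.50, beside -0.77 to -0.68. The pair annotated to Hbb-b2 alone was dim and leaned the same way. 1427865_at had 64.5 in 2aECKO and 51.5 in 2afl/fl, and 17.7 in 2aiECKO and 20.6 in 2afl/fl 4-OHT, with log2 folds of 0.32 and -0.22, and in 2aECKO it was the member closest above the fold limit. 1427866_x_at had 19.1 in 2aECKO and 15.6 in 2afl/fl, and 5.57 in 2aiECKO and 6.70 in 2afl/fl 4-OHT, with log2 folds of 0.29 and -0.27 at signals below 50. The median over the 3 beta probe sets was 0.32 in 2aECKO and -0.27 in 2aiECKO.

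Embryonic globins are made by the primitive red cells of the yolk sac and are largely replaced by the adult chains before birth. Hba-x, the zeta chain, was the one embryonic globin with a probe set that reached 50. It had 57.4 in 2aECKO and 52.2 in 2afl/fl, and 31.7 in 2aiECKO and 35.3 in 2afl/fl 4-OHT, with log2 folds of 0.14 and -0.16. The 3 probe sets of Hbb-bh1 and the 3 of Hbb-y, both beta-like chains of the embryo, had signals of 5.03 to 19.1 over the 4 arrays. Their log2 folds ran from -0.33 to 0.00 in 2aECKO and from -0.20 to 0.10 in 2aiECKO. The largest of these, -0.33 at 1450621_a_at of Hbb-y, was a difference between 11.0 in 2aECKO and 13.8 in 2afl/fl, far below a signal of 50. The medians over the 7 embryonic probe sets were -0.14 in 2aECKO and -0.07 in 2aiECKO. With 6 of them below 50 on all arrays, they cannot show whether the embryonic genes moved with the adult ones. Hba-x lay on the side of the adult ones in each pool, within the fold limit.

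Alas2 makes the first intermediate of haem in erythroid cells, where its output is matched to globin synthesis. Its probe set had 120 in 2aECKO and 57.9 in 2afl/fl, a log2 fold of 1.05, and 25.8 in 2aiECKO and 36.8 in 2afl/fl 4-OHT, a log2 fold of -0.51 at signals below 50 in both arrays. The direction in each pool was that of the shared globin probe sets. The other genes of the haem pathway stayed within the fold limit. Of 12 haem synthesis genes listed, 11 were measured, and Alas2 was the single one that met the fold rule, in 2aECKO only. The list median over the 11 was -0.01 in 2aECKO and -0.03 in 2aiECKO, beside 2.21 percent of genes higher and 1.74 percent lower in 2aECKO and 1.88 percent higher and 0.598 percent lower in 2aiECKO over all genes. Alas1, the enzyme for the same step in all other tissues, had 501 in 2aECKO and 534 in 2afl/fl, and 495 in 2aiECKO and 540 in 2afl/fl 4-OHT, with log2 folds of -0.09 and -0.13. Fech, which inserts iron into the ring as the last step, had 931 in 2aECKO and 936 in 2afl/fl, and 583 in 2aiECKO and 613 in 2afl/fl 4-OHT, and the intermediate enzymes Alad, Uros, Urod, Cpox and Ppox lay between -0.05 and 0.13 over both pairs. These enzymes are made in all tissues, whereas Alas2 is made in the erythroid line.

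Slc4a1, the band 3 anion exchanger and the most abundant protein of the red cell membrane, was dim in all 4 pools. Its probe set 1416464_at had 29.7 in 2aECKO and 31.8 in 2afl/fl, and 14.6 in 2aiECKO and 15.5 in 2afl/fl 4-OHT, with log2 folds of -0.10 and -0.09. At 1431743_a_at the values were 14.0 in 2aECKO and 13.8 in 2afl/fl, and 10.9 in 2aiECKO and 10.4 in 2afl/fl 4-OHT. At 1434502_x_at they were 17.0 in 2aECKO and 14.5 in 2afl/fl, and 7.54 in 2aiECKO and 10.4 in 2afl/fl 4-OHT, with log2 folds of 0.23 and -0.47. All 3 were below 50 on every array, and they did not point one way. Ermap, an immunoglobulin-like protein of erythroid membranes, had 42.9 in 2aECKO and 30.9 in 2afl/fl, and 22.5 in 2aiECKO and 25.7 in 2afl/fl 4-OHT. Its log2 folds were 0.47 and -0.19, at signals below 50, and against the control of the other pair they were -0.02 in 2aECKO and 0.32 in 2aiECKO. The 12 members that were below 50 on all arrays had log2 folds of -0.33 to 0.47 in 2aECKO, with a median of -0.08, and of -0.47 to 0.10 in 2aiECKO, with a median of -0.10.

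**Figure D2:**
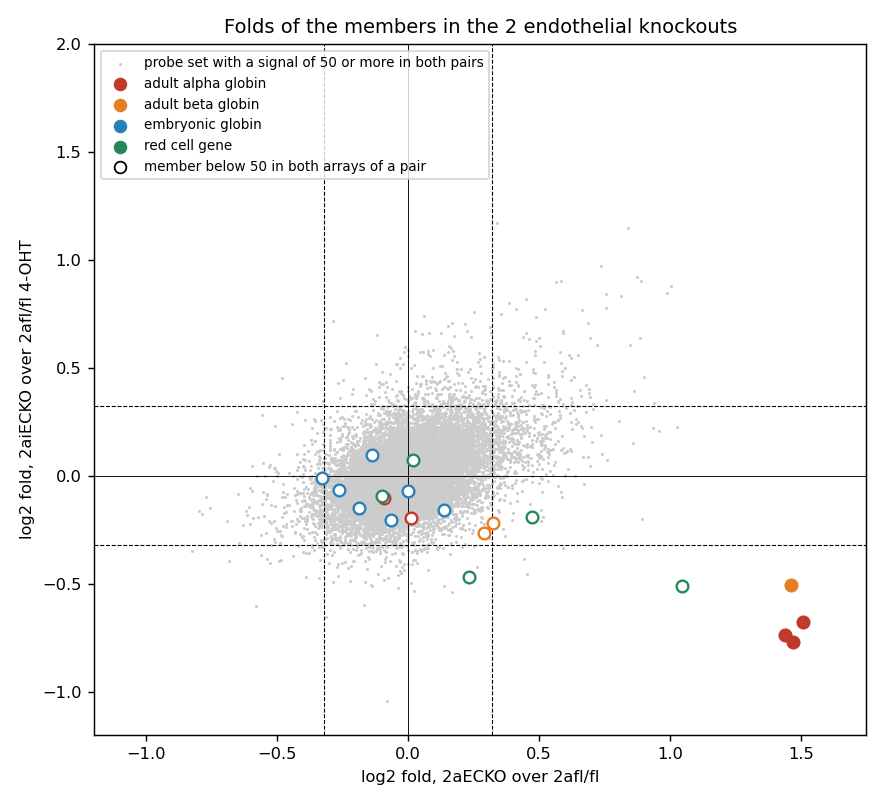
Log2 fold of 2aECKO over 2afl/fl (x axis) against that of 2aiECKO over 2afl/fl 4-OHT (y axis) for the 20 members and, in grey, 22655 probe sets with a signal of 50 or more in both pairs, of which 1 lies outside the axes. Dashed lines mark the fold limit, open circles mark members below 50 in both arrays of at least 1 pair, and the 4 shared adult globin probe sets lie at the lower right, at 1.44 to 1.51 and -0.77 to -0.50.

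Ranked by fold among the 27276 probe sets with a signal of 50 or more in either array, the 4 shared globin probe sets were the 4 highest in 2aECKO, and Alas2 was number 7. Between them stood Bpifb9b, at a log2 fold of 1.29, and a probe set that is unnamed here. In 2aiECKO the 4 were numbers 9, 10, 12 and 22 from the lowest of 22723. The 8 probe sets lower than all 4 were annotated to crystallin genes, which encode the transparent proteins of the eye lens, from -4.43 for the set shared by Crygb and Crygc to -0.86 for Cryba2. These ranks describe the values that led to the choice of the genes.

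**Figure D3:**
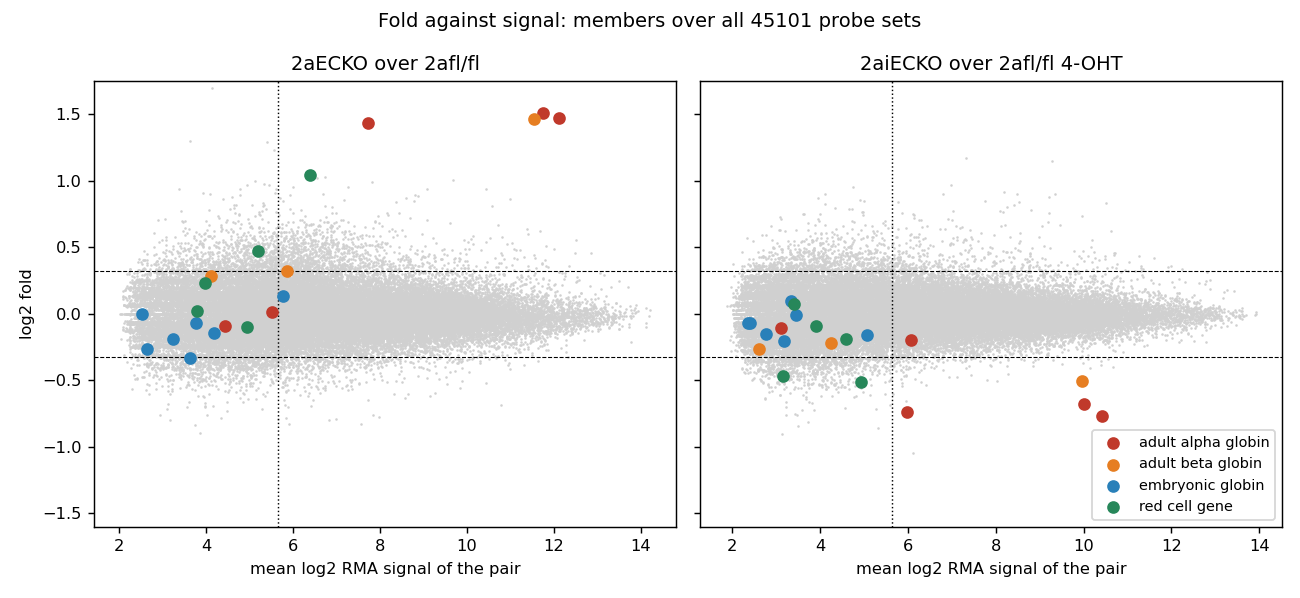
Log2 fold (y axis, knockout pool over its control) against the mean log2 RMA signal of the pair (x axis) for all 45101 probe sets in grey and the 20 members in colour, with 2aECKO on the left and 2aiECKO on the right. The dotted line marks a signal of 50 and dashed lines the fold limit, and the 3 brightest globin probe sets lie beyond the dashed lines, above in the left panel and below in the right. Folds outside the axis leave out 1 probe set on the left and 7 on the right, none of them a member.

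The 2 comparisons share no array, so the opposite folds are not tied by a common control. On the array, 7 probe sets were higher in 2aECKO and lower in 2aiECKO, of which 4 were the shared globin probe sets. There were 2 with the opposite pattern, 152 higher in both pools and 22 lower in both. Of all probe sets with a signal of 50 or more in the pair, 4.64 percent were higher and 1.95 percent lower in 2aECKO. In 2aiECKO 1.99 percent were higher and 0.726 percent lower. These shares alone make opposite calls uncommon, so nothing is read from the count of 7. Among genes with a probe set of 1 symbol, Erdr1 alone was higher in 2aECKO and lower in 2aiECKO, at 1452406_x_at. That ending marks probes that may cross-hybridise to other genes. Erdr1 had signals of 3480 in 2aECKO and 2560 in 2afl/fl, and 1180 in 2aiECKO and 1530 in 2afl/fl 4-OHT, with log2 folds of 0.44 and -0.38. The other 2 were 1439200_x_at, which is unnamed here, with log2 folds of 0.46 and -0.46, and 1447939_a_at, which carries several gene-model symbols, with 0.59 and -0.33. Likeness was taken over 2 comparisons only, so it holds little weight for any 1 gene.

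When all 4 arrays were brought to 1 distribution by quantile normalization, the 4 pools could be set on 1 scale. At 1428361_x_at the normalized signals were then 6802 in 2aECKO, 1149 in 2aiECKO, 2419 in 2afl/fl and 1977 in 2afl/fl 4-OHT. At 1417184_s_at they were 4563 in 2aECKO, 922 in 2aiECKO, 1623 in 2afl/fl and 1309 in 2afl/fl 4-OHT. Alas2 had 99.7 in 2aECKO, 33.4 in 2aiECKO, 46.3 in 2afl/fl and 46.4 in 2afl/fl 4-OHT. At each of these, and at the other 2 shared alpha probe sets, the 2aECKO pool was highest, the controls came next and the 2aiECKO pool was lowest. The controls differed from each other by 0.14 to 0.35 (log2, 2afl/fl minus 2afl/fl 4-OHT) at the 4 globin probe sets and by 0.00 at Alas2. Age and 4-OHT differ between the pairs and cannot be told apart from the pair here. The dim Hba-a2 probe set 1427219_at went the other way between the controls, by -1.29.

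Whether other RNA of red cells moved with the globins was asked with lists of erythroid genes, picked with earlier results of these arrays in view. Of 24 genes of reticulocytes and late erythroid cells, 20 were measured and 12 had a signal of 50 or more on any array. 0 were higher and 0 lower in either pool. Over all genes 2.21 percent were higher and 1.74 percent lower in 2aECKO, and 1.88 percent higher and 0.598 percent lower in 2aiECKO. The list median was 0.00 in 2aECKO and -0.01 in 2aiECKO, beside -0.01 and 0.00 over all genes with a signal of 50 or more in either array of the pair. Slc25a37, the mitochondrial iron importer known as mitoferrin, had 161 in 2aECKO and 147 in 2afl/fl, and 66.2 in 2aiECKO and 64.6 in 2afl/fl 4-OHT. Tfrc, the transferrin receptor, had log2 folds of -0.12 and -0.18. Tent5c, a poly(A) polymerase that is abundant in late erythroid cells, had 48.9 in 2aECKO and 24.5 in 2afl/fl, and 23.9 in 2aiECKO and 18.8 in 2afl/fl 4-OHT, with log2 folds of 1.0 and 0.34 at signals below 50. Some markers with little expression outside blood were dim, such as Hemgn at 6.17 to 7.24 and Rhag at 4.42 to 5.47 over the 4 arrays. Trim10 of the same list reached 50 in the 2aECKO pair, with 58.2 in 2aECKO and 65.0 in 2afl/fl, a log2 fold of -0.16. It had 27.3 in 2aiECKO and 30.0 in 2afl/fl 4-OHT, a log2 fold of -0.14 at signals below 50. Many of the brighter genes of this list, Prdx2, Car2, Bpgm and Mkrn1 among them, are also made by brain cells.

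Of 18 red cell membrane and skeleton genes, 15 were measured, and 8 reached 50 in the 2aECKO pair and 7 in the 2aiECKO pair. Slc4a1, Ermap and Rhag were below 50 on all 4 arrays, so these members say little of red cells. In 2aECKO 1 was higher and 0 lower, beside 2.21 percent higher and 1.74 percent lower over all genes. In 2aiECKO 0 were higher or lower, beside 1.88 percent higher and 0.598 percent lower. The medians over the 15 were -0.06 and -0.04. The higher gene was Aqp1, the water channel of red cells, which is also a defining gene of choroid plexus, with 93.5 in 2aECKO and 70.0 in 2afl/fl, and 63.4 in 2aiECKO and 58.0 in 2afl/fl 4-OHT. The skeletal genes Sptb, Ank1 and Dmtn, which neurons also use, lay between -0.22 and 0.00 in log2 fold over both pairs. Gypc, Tmod1, Rhd and Add2 also reached 50 in the 2aECKO pair, where they stood at -0.24, -0.28, 0.08 and -0.02. In the 2aiECKO pair they stood at -0.04, -0.03, -0.04 and -0.08, with Rhd below 50 there. How far these genes stand for red cells in cerebrum RNA was not tested.

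Erythroid regulators were also near their controls. Of 12 measured, 1 was higher and 0 lower in 2aECKO, beside 2.21 percent higher and 1.74 percent lower over all genes. In 2aiECKO 0 were higher or lower, beside 1.88 percent higher and 0.598 percent lower. The list median was -0.03 in 2aECKO and -0.08 in 2aiECKO. Gata1, the master regulator of red cell genes, had 85.9 in 2aECKO and 88.4 in 2afl/fl, and 62.8 in 2aiECKO and 66.1 in 2afl/fl 4-OHT. Klf1, the activator of adult beta globin, had 45.6 in 2aECKO and 51.8 in 2afl/fl, and 34.9 in 2aiECKO and 39.2 in 2afl/fl 4-OHT. The higher gene was Myb, a factor of blood progenitors, with 73.9 in 2aECKO and 50.1 in 2afl/fl, and 42.9 in 2aiECKO and 45.4 in 2afl/fl 4-OHT. Nfe2, whose protein binds the beta-globin control region, leaned as the globins did, with log2 folds of 0.33 and -0.30, at signals of 9.92 to 27.6. In the list of hypoxia genes and the erythropoietin axis, 12 of 14 were measured and 0 were higher or lower in either pool. The shares over all genes are those given for the regulators, and with so few genes such a count holds little weight. The medians were 0.02 in 2aECKO and 0.01 in 2aiECKO.

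Globins of brain itself had folds near 0. Ngb, neuroglobin, had 187 in 2aECKO and 194 in 2afl/fl, and 175 in 2aiECKO and 179 in 2afl/fl 4-OHT. Cygb, cytoglobin, had 233 in 2aECKO and 232 in 2afl/fl, and 114 in both 2aiECKO and 2afl/fl 4-OHT. Their log2 folds lay between -0.05 and 0.01. Among genes that handle free haem and iron, 16 of 19 were measured, and 12 had a signal of 50 or more in each pair. The same 2, Heph and Cp, were higher in each pool, beside 2.21 percent higher in 2aECKO and 1.88 percent in 2aiECKO over all genes. Heph, the copper oxidase hephaestin, had 59.9 in 2aECKO and 39.7 in 2afl/fl, and 56.5 in 2aiECKO and 35.5 in 2afl/fl 4-OHT, while Cp, ceruloplasmin, had log2 folds of 0.33 and 0.34. Hmox1, the inducible enzyme that degrades haem, had 91.9 in 2aECKO and 78.0 in 2afl/fl, and 61.6 in 2aiECKO and 60.6 in 2afl/fl 4-OHT, a log2 fold of 0.24 and 0.02.

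**Figure D4:**
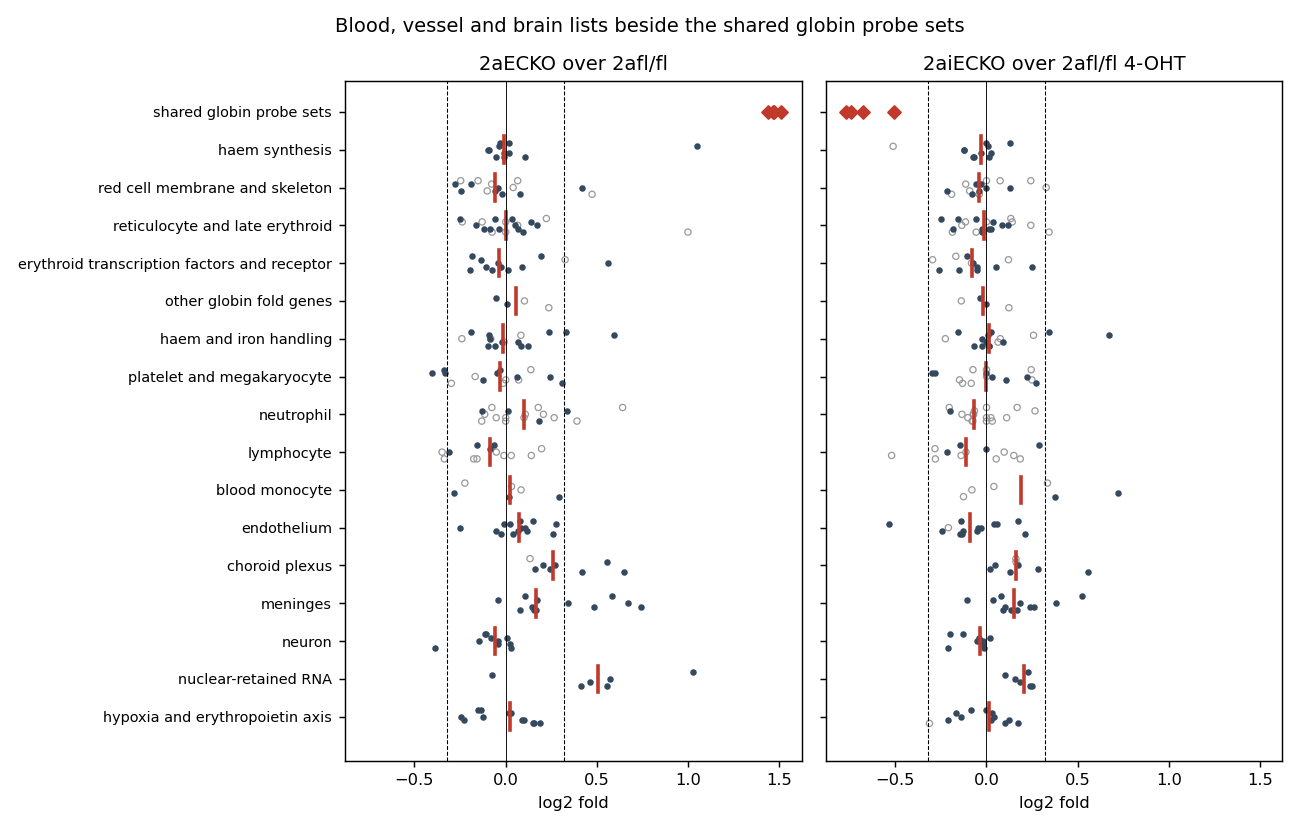
Log2 fold of each measured gene of the 16 lists (points, 1 probe set per gene) and the list median (red bar), with the 4 shared globin probe sets as diamonds in the top row, for 2aECKO on the left and 2aiECKO on the right. Open points are genes below a signal of 50 in both arrays of the pair and dashed lines mark the fold limit, and the medians of the erythroid lists lie near 0 while the globin diamonds lie at 1.44 to 1.51 and at -0.77 to -0.50.

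Genes of other blood cells were mostly dim, and those below 50 in both arrays of a pair could not be called. A signal of 50 was reached in the 2aECKO pair by 4 of 17 neutrophil, 4 of 13 lymphocyte, 9 of 15 platelet and 3 of 6 monocyte genes. In the 2aiECKO pair it was reached by 1, 4, 7 and 2 of them. For all counts below, the shares over all genes were 2.21 percent higher and 1.74 percent lower in 2aECKO. In 2aiECKO these shares were 1.88 percent higher and 0.598 percent lower. Of the neutrophil genes, 1 was higher in 2aECKO, Csf3r with 71.5 in 2aECKO and 56.7 in 2afl/fl, beside 2.21 percent higher over all genes. In 2aiECKO 0 were higher or lower. The summed neutrophil signal was 620 in 2aECKO and 585 in 2afl/fl, and 422 in 2aiECKO and 437 in 2afl/fl 4-OHT. S100a8 and S100a9, the calprotectin genes that dominate neutrophil mRNA, had 2aECKO folds of 0.64 and 0.39 on the log2 scale, and 2aiECKO folds of -0.20 and 0.00, at signals of 11.9 to 39.0. Ngp, Camp and Ltf went the other way in 2aECKO, with log2 folds of -0.12, -0.13 and -0.13. All 17 neutrophil genes ran from -0.13 to 0.64 in 2aECKO, with a median of 0.10. In 2aiECKO they ran from -0.20 to 0.27, with a median of -0.07. Of 13 lymphocyte genes, 0 were higher or lower in either pool, and the summed signal was 593 in 2aECKO and 651 in 2afl/fl, and 452 in 2aiECKO and 460 in 2afl/fl 4-OHT. Of 15 platelet genes, 3 were lower in 2aECKO, Gp1bb, Itgb3 and Tubb1, with log2 folds of -0.40, -0.33 and -0.34, beside 1.74 percent lower over all genes, and 0 were higher or lower in 2aiECKO. Gp1bb and Itgb3 are also made by cells of the brain. Of 6 blood monocyte genes, 2 were higher in 2aiECKO, beside 1.88 percent higher over all genes, and 0 were higher or lower in 2aECKO. The 2 were Cd52 with 90.7 in 2aiECKO and 55.2 in 2afl/fl 4-OHT and S100a4 with 118 in 2aiECKO and 91.0 in 2afl/fl 4-OHT.

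Vessel, plexus and meninges genes were set beside the globins, since blood lies within these tissues. Of 14 endothelial genes measured, 0 were higher or lower in 2aECKO, where the median was 0.07, and 1 was lower in 2aiECKO, where it was -0.09. That gene was Vwf, the clotting factor carrier of endothelium and platelets, with 136 in 2aECKO and 134 in 2afl/fl, and 70.4 in 2aiECKO and 102 in 2afl/fl 4-OHT. The summed endothelial signal was 4340 in 2aECKO and 4160 in 2afl/fl, and 3110 in 2aiECKO and 3220 in 2afl/fl 4-OHT. Over all genes, 2.21 percent were higher and 1.74 percent lower in 2aECKO, and 1.88 percent higher and 0.598 percent lower in 2aiECKO. Of the meningeal genes, 5 of 12 were higher in 2aECKO (median 0.17) and 2 of 12 in 2aiECKO (median 0.15), led by Col1a1 with 378 in 2aECKO and 226 in 2afl/fl, and by Ogn with 156 in 2aiECKO and 109 in 2afl/fl 4-OHT. Choroid plexus genes had 3 of 8 higher in 2aECKO (median 0.26) and 1 of 8 in 2aiECKO (median 0.16), with Otx2 at 86.9 in 2aECKO and 55.4 in 2afl/fl, and 79.7 in 2aiECKO and 54.2 in 2afl/fl 4-OHT. The meningeal and choroid plexus medians were thus above 0 in each pool, while the endothelial median was 0.07 in 2aECKO and -0.09 in 2aiECKO. Whether any of these tissues bears on the globin folds was not tested.

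Signs of RNA makeup were set beside the globins too. Long RNAs kept largely in the nucleus, which reticulocytes lack, had 5 of 6 higher in 2aECKO (median 0.51), beside 2.21 percent over all genes, and 0 of 6 in 2aiECKO (median 0.21), beside 1.88 percent, with Malat1 at 7114 in 2aECKO and 4844 in 2afl/fl, and 1992 in 2aiECKO and 1676 in 2afl/fl 4-OHT. The log2 ratio of 3′ to 5′ control probe sets of Gapdh was -0.17 in 2aECKO and -0.13 in 2afl/fl, and -0.28 in 2aiECKO and -0.26 in 2afl/fl 4-OHT. That of Actb was 0.37 in 2aECKO and 0.36 in 2afl/fl, and 0.28 in 2aiECKO and 0.27 in 2afl/fl 4-OHT. That of Tfrc was 2.39 in 2aECKO and 2.17 in 2afl/fl, and 2.33 in 2aiECKO and 2.36 in 2afl/fl 4-OHT, with 5′ signals of 9.22 to 19.1. Of 10 neuronal genes, 1 was lower in 2aECKO, Slc17a7 with 248 in 2aECKO and 324 in 2afl/fl, beside 1.74 percent lower over all genes. In 2aiECKO 0 were higher or lower, beside 1.88 percent higher and 0.598 percent lower. The neuronal medians were -0.06 in 2aECKO and -0.03 in 2aiECKO. The part of blood left in each pool, of reticulocyte number, of nuclear RNA and of adjoining tissue in the globin folds was not tested.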

How the data were processed

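Cerebrum RNA was hybridised to Affymetrix Mouse 430 2.0 arrays, 1 pooled sample for each of 4 groups. The deposited file holds linear intensity values. The authors background-adjusted and quantile-normalized them in RMA. The methods name the affy package in R and the submitters' processing notes name Partek 6.6, and the values do not settle which was used.

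The members, the 16 gene lists (214 genes, 187 measured) and the rule for named genes were chosen with earlier results of these data known. All probe sets of the members are named. Of each list, up to 3 genes that met the fold rule are named, chosen by size of fold, with erythroid and haem genes of signal 50 or more, of which some were picked by role. Genes named outside the rule because their value or role was of interest (Tent5c, Nfe2, Hemgn, Rhag, S100a8, S100a9, Ngp, Camp, Ltf, Hmox1, Ngb, Cygb, Bpifb9b and the crystallins) were chosen after their values were seen. Probe sets were named from the platform annotation, in which 34958 carry 1 symbol, 932 several and 9211 are unnamed here, with symbols updated through RefSeq GRCm38.p6. In lists a gene was its brightest probe set of 1 symbol.

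Log2 folds were taken within each pair. No test across arrays was possible with 1 array per group. Alternatives were a fold of 1.5, a minimum signal of 100, no minimum, median centring, removal of a loess trend (fraction 0.3), quantile normalization over 4 arrays, the other control or the mean of both, leaving out probe sets ending _x_at or _s_at, and a gene's mean over its probe sets. The fold code was tested on simulated data. Python 3.11.15 was used, with statsmodels 0.14.6 for loess, pandas 2.3.3 and numpy 2.4.6 for tables and matplotlib 3.10.9 for figures.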

Additional observations from a re-analysis of the deposited data

Results flagged for a closer look

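The 5 member probe sets given here are those with a log2 fold past 0.32 in both pools, above the control in 2aECKO and below it in 2aiECKO. The members were chosen with these folds known, so this is a description. The difference between the pools was not tested, since each group was 1 array. The difference of the log2 folds, 2aECKO minus 2aiECKO, was 2.24 at 1428361_x_at, 2.19 at 1452757_s_at and 2.18 at 1417714_x_at of alpha globin. It was 1.97 at 1417184_s_at of adult beta globin. At Alas2 it was 1.56, with signals below 50 in both arrays of the 2aiECKO pair.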

How the results depend on the processing

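The 4 shared globin probe sets kept their direction under every alternative that retains them, with log2 folds between 1.44 and 1.90 in 2aECKO and between -1.07 and -0.50 in 2aiECKO, and Alas2 kept 1.04 to 1.11 in 2aECKO. Leaving out probe sets ending _x_at or _s_at removes all 4. The alpha median then was -0.0413 in 2aECKO, opposite in sign, and -0.15 in 2aiECKO, short of the fold limit, and the members counted were 2 higher in 2aECKO and 0 lower in 2aiECKO, against 6 and 4. The beta median in 2aECKO missed the limit when the loess trend was removed (0.3212) and at a fold of 1.5 (0.324). In 2aiECKO it passed the limit at -0.82 against the other control and at -0.66 against the mean of both. Against the other control or the mean of both, 1 member was lower in 2aECKO and 1 higher in 2aiECKO, in place of 0, and with no minimum signal 1 member was lower in 2aECKO. With 2afl/fl 4-OHT as its control, Hba-a2 at 1427219_at had -1.295 in 2aECKO, and with 2afl/fl it had 1.10 in 2aiECKO. A minimum signal of 100 ended the call of 1417714_x_at in 2aiECKO and a fold of 1.5 that of 1417184_s_at. Hbb-b2 at 1427865_at lost its call in 2aECKO under both and with the loess trend removed. Of the list medians under alternatives, 249 stayed on their side of the fold limit, 6 came to pass it and 1 ceased to. Those that passed were, against the other control, Ngb, Cygb and their relatives (-0.46 in 2aECKO, 0.50 in 2aiECKO), meninges in 2aECKO (0.52) and choroid plexus in 2aiECKO (0.43), then meninges in 2aECKO against the mean of both (0.34) and choroid plexus in 2aECKO without _x_at and _s_at (0.34). Nuclear-retained RNA in 2aECKO, at 0.51, fell short of a fold of 1.5. Of the list counts, 539 were within 1.5 times and 101 were not, 41 of them with the other control and 18 with the mean of both. Over all settings, the genes higher in 2aECKO ran from 0 to 2 for the erythroid regulators, haem and iron handling and the red cell membrane, from 0 to 4 for choroid plexus, from 2 to 7 for meninges and from 1 to 5 for nuclear-retained RNA, and the platelet genes lower there from 0 to 5. In 2aiECKO the meningeal genes higher ran from 0 to 2 and those of choroid plexus from 0 to 5, and endothelial genes lower from 0 to 3. No paired analysis was possible because each group was 1 array, and no replicate could be left out. The minimum signal does not enter the medians. A single array per pool and signals near 50 limit what can be said of Alas2 in 2aiECKO, Slc4a1, Ermap and the embryonic globins.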
